A study of Rattus norvegicus with 196 samples.

Results

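The response of the lateral septum (LS) to fluoxetine (FT) was measured in 8 of the 196 samples of the series, which were taken by their brain region label (LS) and their treatment label as 4 FT and 4 Sham samples. The replicates carry the numbers 1, 3, 4 and 5 in both groups. The animals were male Long-Evans rats, 2 months old at the start, with no stress model and no genetic change. FT rats received fluoxetine in their drinking water over 6 weeks at a daily dose of 18 mg/kg, and Sham rats received water alone for the same time. Each sample pooled LS punches from 10 of the 40 rats of its group, so the spread between samples is that between pools and not between single rats. Punches from frozen slices can take in tissue beside the septum. The FT sample and the Sham sample of a replicate number were handled in parallel, and the comparison was made within these pairs. For the question of where LS differed from its surroundings, 8 samples each of medial septum (MS), bed nucleus of the stria terminalis (BNST) and nucleus accumbens shell (labelled NaCshell) with the same groups and replicate numbers were used.

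The lateral septum is a forebrain nucleus of mostly GABAergic projection neurons that receives dense input from the hippocampus and sends output to the hypothalamus and midbrain. It is innervated by serotonin fibres of the raphe nuclei and carries serotonin receptors, and it is known for its part in anxiety, stress coping and social behaviour. Fluoxetine blocks the serotonin transporter, which takes serotonin back into the nerve ending, so the drug acts first on serotonin fibres and over weeks on the neurons and glia that they reach.

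The number of reads counted on transcripts ranged from 3452944 to 14667983 in Sham and from 6755138 to 14291989 in FT. Sham replicate 3 had the lowest total, and 79.5% of its reads lay on its 50 most abundant transcripts, against 63.8% in FT replicate 3 and 26.3% to 31.8% in the other 6 samples. Some results that change without this pair are given with and without it. Not all LS markers with a transcript identifier were highest in LS. In Sham, Sst, which encodes the peptide somatostatin, had a median of 203 CPM (read counts scaled to library size with TMM factors, here over the 4 regions) in LS, with a range from 22.9 to 663, against a median of 34.6 in MS, from 12.2 to 224. Gad2 had medians of 139, 109, 102 and 114 CPM in LS, MS, BNST and NaCshell, and Htr1a 3.39, 1.54, 0.308 and 0.369. Other members of the LS list were higher elsewhere. In the same order PENK had medians of 358, 281, 543 and 878 CPM, Gal 1.57, 6.60, 14.8 and 6.48, and Cartpt 23.2, 21.7, 31.5 and 102. Slc5a7, the choline transporter of cholinergic neurons such as those of the medial septum, lay between 5.02 and 9.65 CPM in LS and between 18.8 and 123 in MS, without overlap. Pvalb, which marks fast-spiking GABA neurons, had a median of 15.3 CPM in LS and 86.0 in MS, but the ranges met. Ttr, which encodes transthyretin and is made in the brain by the choroid plexus of the ventricle wall, had medians of 3020 CPM in LS and 3089 in MS, against 97.3 in BNST and 85.5 in NaCshell.

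Which transcripts differed between FT and Sham was tested with edgeR's quasi-likelihood test with the replicate number as a block. To count as a DEG, a transcript needed an absolute log2FC of at least 0.32 and a p of at most 0.1 after Benjamini-Hochberg adjustment. Of 13793 transcripts tested, 4 were DEGs, which is 0.029% of those tested, and all 4 were lower in FT (0.0% higher). DESeq2 with the same block, run as an alternative, called 49 of 22652 transcripts with a p-value (0.216%). Of the 22652, 33 (0.146%) were called higher and 16 (0.0706%) lower in FT, and 1 call was shared with edgeR. Some of the 22652 got no adjusted p and could not be called, among them Fos, Slc7a10, Gabrb2, DEPP, Tmem18, Amph and Lrrtm4. In simulated counts both tools made a larger share of false calls than the adjusted p allows. At an unadjusted p under 0.05 edgeR gave 1019 transcripts (7.39%), of which 589 (4.27%) were higher and 430 (3.12%) lower. Across all transcripts tested, 1281 (9.29%) were higher in FT in all 4 pairs and 737 (5.34%) were lower in all 4. Only 82 (0.595%) had every FT sample above every Sham sample, and 46 (0.334%) had every FT sample below. The median log2FC of all transcripts tested was 0.04. Gene names were known for 1828 of the transcripts tested, and their median log2FC was 0.25. Of these named transcripts 18.7% were higher and 8.7% lower at an unadjusted p under 0.05, and 19.8% were higher and 6.78% lower in all 4 pairs. They come from a list that the study drew up from transcripts that changed in several regions of this series, so this share is no independent evidence of a response.

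The 4 DEGs have identifiers but no gene names in the sources used here. ENSRNOT00000071231 was counted at 427, 3715, 67.2 and 78.7 CPM in Sham replicates 1, 3, 4 and 5 and at 91.2, 760, 8.16 and 5.74 CPM in FT. Its level differed more between pools than between treatments, and the groups overlapped, but FT was lower in every pair. It fell with a log2FC of -2.81 ± 0.35 (SE, n = 4 pairs; edgeR adjusted p = 0.00953), and DESeq2 also called it. DESeq2 gave the other 3 no adjusted p, at a log2FC of -2.55, -2.44 and -2.58 for ENSRNOT00000071687, ENSRNOT00000072398 and ENSRNOT00000074406. ENSRNOT00000071687 fell with a log2FC of -2.51 ± 0.36 (edgeR adjusted p = 0.0249), ENSRNOT00000072398 with -2.39 ± 0.37 (adjusted p = 0.0456) and ENSRNOT00000074406 with -2.52 ± 0.40 (adjusted p = 0.0487). These 3 were scarce, with 1.91 to 5.50 CPM in FT replicates 1 and 3 and under 1 CPM in FT replicates 4 and 5, so their folds rest on 4 to 84 reads per FT sample. With median-ratio size factors in place of TMM, 15 unnamed transcripts were DEGs, these 4 among them, and each was lower in FT in all 4 pairs. Several of the 15 had nearly the same counts in every sample, and the number of separate RNAs among them is uncertain. Whether they share reads was not tested. Together the 15 held 3.49, 9.84, 2.47 and 1.72% of the reads in Sham replicates 1, 3, 4 and 5, and 1.62, 3.07, 0.446 and 0.278% in FT. The share was lower in FT in each pair, while FT replicate 3 lay above Sham replicates 4 and 5. This group was put together after its values had been seen.

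The named genes that DESeq2 called belong to many functions, with 29 higher and 3 lower in FT. Of the 29, 28 were higher in all 4 pairs, where 19.8% of named transcripts were, and 8 had every FT sample above every Sham sample, where 0.595% of all transcripts did. The 29 were picked by a call on these same samples, so these counts are no further evidence of a response. Their log2FC in edgeR lay between 0.82 and 1.29. None of the 32 was a DEG in the main edgeR fit, where their adjusted p ranged from 0.131 to 0.589, so each is there a call of one tool. With no low-count filter edgeR called some of them, such as Fdx1l, Rgcc, Otub1 and Mat2a. Without replicate 1 it called Fdx1l, Rgcc, Srp9, Lrtm2 and Pfkl, and without replicate 4 or 5 no named transcript. Fdx1l encodes a mitochondrial ferredoxin that works in the synthesis of iron-sulfur clusters. It was counted at 30.2, 77.8, 7.53 and 11.2 CPM in Sham replicates 1, 3, 4 and 5 and at 85.1, 136, 22.9 and 26.6 CPM in FT. The pools differed widely and the groups overlapped, but FT was higher in each pair. Its log2FC was 1.29 ± 0.25 (edgeR adjusted p = 0.131; DESeq2 adjusted p = 4.9e-04).

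Rgcc, a regulator of the cell cycle that responds to complement, stood at 32.04, 38.02, 42.1 and 26.6 CPM in Sham and at 51.3, 85.1, 84.4 and 94.4 CPM in FT. All FT samples lay above all Sham samples, and the log2FC was 1.17 ± 0.27 (DESeq2 adjusted p = 0.0161; edgeR adjusted p = 0.308). Nrgn encodes neurogranin, which binds calmodulin in the spines of excitatory neurons. It had 105, 565, 15.3 and 74.8 CPM in Sham and 288, 947, 86.7 and 98.7 CPM in FT, higher in every pair, with a log2FC of 1.26 ± 0.34 (DESeq2 adjusted p = 0.0338; edgeR adjusted p = 0.467). Otub1 encodes a deubiquitinase that also blocks ubiquitin-conjugating enzymes. In Sham it had 876, 304, 140 and 278 CPM and in FT 1083, 489, 524 and 836 CPM, with a log2FC of 1.12 ± 0.33 (DESeq2 adjusted p = 0.0496; edgeR adjusted p = 0.486). Sham replicate 1 lay above 3 of the FT samples, but within its own pair FT was higher as in the others.

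Other genes called higher by DESeq2 serve protein targeting, transcription and glycolysis. Srp9, a subunit of the signal recognition particle, had 21.2 to 87.1 CPM in Sham and 92.4 to 213 CPM in FT, without overlap (log2FC 1.29 ± 0.38). Lrtm2, a transmembrane protein with leucine-rich repeats, had a log2FC of 1.29 ± 0.33. Med26 of the Mediator complex reached 1.23 ± 0.33, and Ints1, the scaffold of the Integrator complex that trims small nuclear RNAs, 1.10 ± 0.31. Pfkl, the liver type of phosphofructokinase, had a log2FC of 1.15 ± 0.33 and was higher in 4 of 4 pairs. UBB, a polyubiquitin gene, was counted at 11800, 3728, 1414 and 5755 CPM in Sham and 10010, 10190, 7233 and 12240 CPM in FT. It was higher in 3 of 4 pairs and lower in the pair of replicate 1, with a log2FC of 1.17 ± 0.45.

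**Figure D1:**
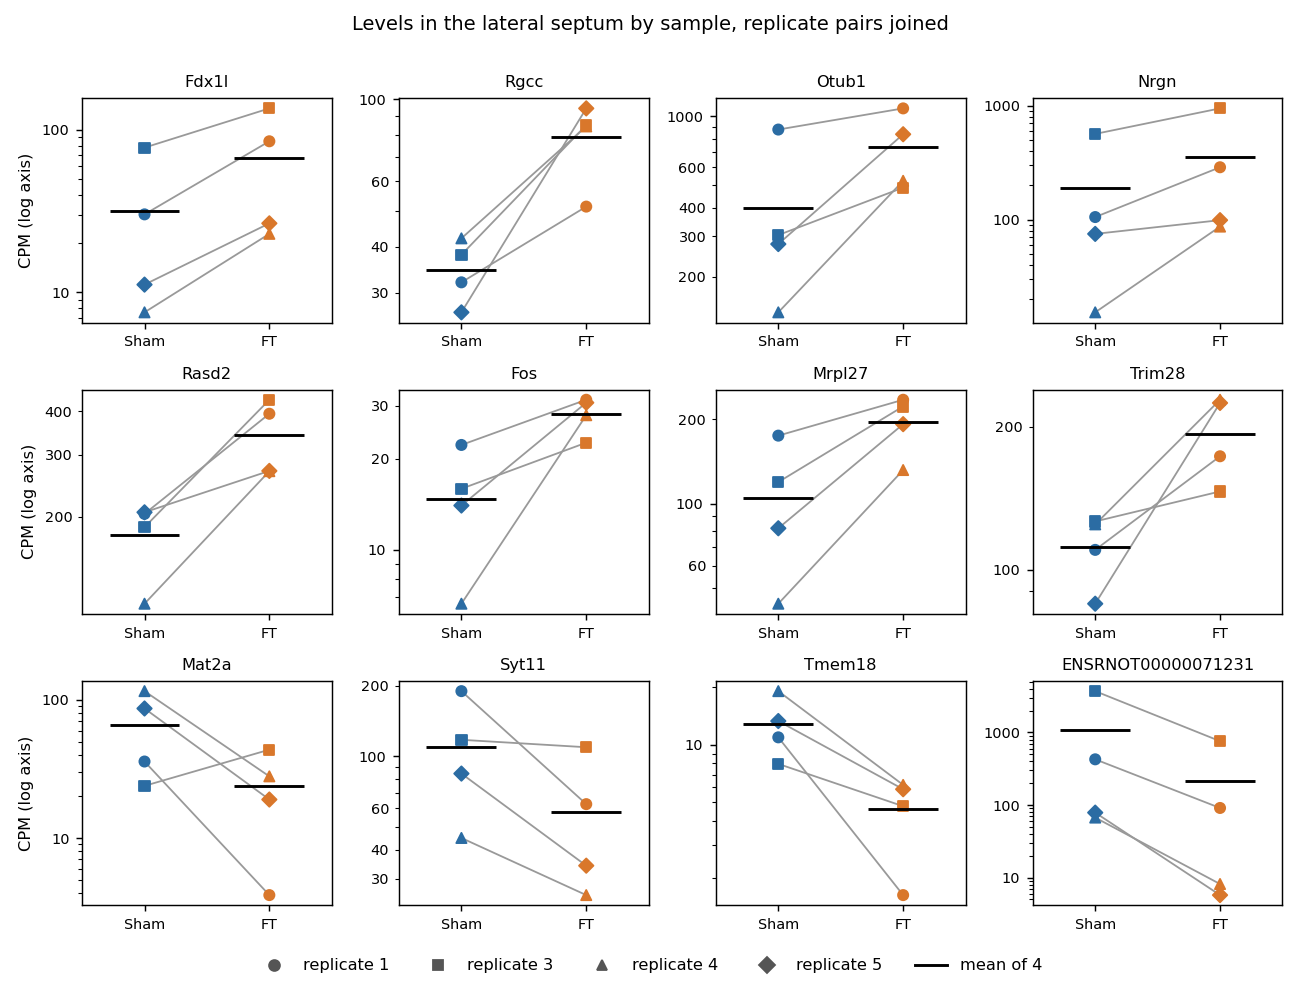
CPM (log axis) of 12 transcripts in the 8 LS samples, blue for Sham and orange for FT, with a symbol for each replicate number, grey lines joining the FT and Sham samples of a pair and black bars for the mean of 4. Fdx1l is higher in FT in all 4 pairs although the pools lie far apart, Rgcc separates the groups fully, and Mat2a is lower in FT in 3 pairs and higher in that of replicate 3.

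DESeq2 called 3 named genes lower, and 2 of them act at the presynaptic terminal. Mat2a, which makes the methyl donor S-adenosylmethionine, was counted at 35.8, 23.9, 116 and 86.7 CPM in Sham replicates 1, 3, 4 and 5 and at 3.86, 43.7, 27.97 and 19.0 CPM in FT. It was lower in FT in 3 of 4 pairs and higher in the pair of replicate 3, with a log2FC of -1.79 ± 0.47 (DESeq2 adjusted p = 0.0177; edgeR adjusted p = 0.467). Without replicate 3 edgeR also called it. Syt11, a synaptotagmin of vesicle traffic, had 190, 118, 44.8 and 84.4 CPM in Sham and 62.5, 109, 25.6 and 34.1 CPM in FT, lower in each pair (log2FC -0.97 ± 0.28; DESeq2 adjusted p = 0.0729; edgeR adjusted p = 0.468). Cplx2, which encodes a complexin that clamps and triggers vesicle fusion, had a log2FC of -1.14 ± 0.35, carried by the pairs of replicates 4 and 5. In these it went from 25.2 to 6.04 and from 30.9 to 7.28 CPM, whereas in replicates 1 and 3 it went from 90.4 to 78.5 and from 485 to 395 CPM.

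Lists of genes for synapse and excitability had negative medians. For the counts of these and the later lists, 18.7% of all named transcripts were higher and 8.7% lower at an unadjusted p under 0.05. The list of synaptic vesicle and release genes had 18 transcripts tested, of which 5 were lower and 1 (Sncb) higher at an unadjusted p under 0.05. The median log2FC was -0.43, and -0.76 without replicate 3, but the members did not fall together. Of the 18, 6 had a positive log2FC, among them the abundant Syp (0.64 ± 0.32) and Ap2m1 (0.38 ± 0.33), each higher in 3 of 4 pairs. The summed level of the list was higher in FT in each pair, at 4548, 3978, 1898 and 2057 CPM in Sham and 4596, 6543, 2073 and 2390 CPM in FT. Amph, whose product amphiphysin takes part in the recovery of vesicle membrane, had 17.5, 21.2, 4.82 and 17.9 CPM in Sham and 3.995, 24.5, 2.36 and 3.89 CPM in FT (log2FC -1.36 ± 0.39). It was lower in 3 of 4 pairs, and the pair of replicate 3 went the other way. Napb, a SNAP protein that takes apart used SNARE complexes, had a log2FC of -1.11 ± 0.36 with the same single exception. The list of ion channels had 3 of 21 lower and 1 higher, with a median of -0.54. Kcnk9, a background potassium channel, had 0.52 and 0.56 CPM in FT replicates 4 and 5 against 3.24 and 2.68 in Sham, but 21.0 against 15.9 CPM in replicate 3 (log2FC -1.65 ± 0.52). Kcnab3, an accessory subunit of potassium channels, was the one member higher, at 5.74 to 9.76 CPM in FT and 0.88 to 6.40 in Sham (log2FC 0.97 ± 0.35).

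Genes for GABA and glycine signalling, the transmitters of most LS neurons and their local partners, had a median log2FC of -0.60 over 7 transcripts, with 2 lower and none higher at an unadjusted p under 0.05. Gabrb2, a beta subunit of the GABA-A receptor, was counted at 2.68, 3.54, 10.5 and 8.03 CPM in Sham and 0.458, 2.87, 3.59 and 3.15 CPM in FT. The ranges overlapped at low levels, but FT was lower in each of the 4 pairs, with a log2FC of -1.52 ± 0.40 (edgeR adjusted p = 0.467). Gabrg1, a gamma subunit, had a log2FC of -0.78 ± 0.29 and was lower in 3 of 4 pairs. Gad2, which encodes the enzyme GAD65 that makes GABA, had 113, 157, 139 and 138 CPM in Sham and 83.8, 131, 93.0 and 99.4 CPM in FT. It was lower in all 4 pairs by a similar amount, with a log2FC of -0.44 ± 0.24 (edgeR adjusted p = 0.727). Only FT replicate 3 lay above any Sham sample. Of the glutamate receptors 1 of 7, the kainate receptor subunit gene Grik3, passed the unadjusted limit (log2FC -1.13 ± 0.46), and the list had a median of -0.36. CAMK2A, the calcium kinase of excitatory synapses, had a log2FC of -0.83 ± 0.36, lower in 2 of 4 pairs.

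The peptide genes past the unadjusted limit were all higher in FT. Of 14 transcripts for neuropeptides and granins, 4 were higher at an unadjusted p under 0.05 and none lower, where 18.7% of named transcripts were higher. The median log2FC was 0.45, but 0.15 without replicate 3 and 0.96 without replicate 1. PENK, the precursor of the enkephalins and a marker of an LS cell group, had 604, 337, 245 and 407 CPM in Sham and 628, 828, 637 and 513 CPM in FT, higher in 4 of 4 pairs (log2FC 0.77 ± 0.32; edgeR adjusted p = 0.612). Vgf, a granin-like precursor, had a log2FC of 0.89 ± 0.28. Cck, which encodes cholecystokinin, had 0.83 ± 0.26, and both were higher in each pair. Gal, the galanin gene, was near the lower end of detection, at 0.226 to 3.23 CPM in Sham and 2.42 to 5.74 CPM in FT (log2FC 1.503 ± 0.58). Sst varied widely between pools, at 360, 714, 22.3 and 72.3 CPM in Sham and 185, 1994, 37.4 and 81.1 CPM in FT, and its log2FC was 0.36 ± 0.37. Without replicate 3 it was -0.04. Cartpt, the precursor of the CART peptides, had a log2FC of 0.24 ± 0.30.

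Of the 19 serotonin signalling genes on the list 1 had an identifier. Htr1a encodes the 5-HT1A receptor, an inhibitory receptor on LS neurons and on serotonin neurons themselves. It was counted at 3.90, 4.42, 0.226 and 3.18 CPM in Sham and at 1.44, 9.88, 0.377 and 0.124 CPM in FT, and the log2 ratios of FT to Sham were -1.35, 1.13, 0.49 and -3.63 in the pairs of replicates 1, 3, 4 and 5. The pairs thus went both ways, and the log2FC was -1.05 ± 0.70 (edgeR adjusted p = 0.771). These values rest on few reads, with 64, 5, 3 and 76 in Sham and 22, 31, 8 and 2 in FT. The serotonin transporter and the other receptors were not analysed here.

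Genes that mark striatal medium spiny neurons were higher in FT as a group. The striatum borders the lateral septum across the ventricle, and its output neurons are recognised by dopamine and adenosine receptors and by the phosphoprotein DARPP-32. All 6 transcripts tested had a positive log2FC, and 5 of 6 were higher at an unadjusted p under 0.05, where 18.7% of named transcripts were. In 4 every FT sample lay above every Sham sample, where 0.595% of all transcripts did. The 6 are named transcripts, whose share without overlap was not counted. Named transcripts were higher in all 4 pairs more often than all transcripts tested (19.8% against 9.29%). The median log2FC was 0.79, and 0.77 without replicate 3. Ppp1r1b, the gene of DARPP-32, had 140, 162, 125 and 130 CPM in Sham and 284, 306, 190 and 194 CPM in FT, without overlap (log2FC 0.78 ± 0.26; edgeR adjusted p = 0.548). Rasd2, which encodes the small GTPase Rhes, had 204, 187, 113 and 206 CPM in Sham and 394, 431, 270 and 270 CPM in FT, again without overlap. It was the member that DESeq2 called (log2FC 0.95 ± 0.28; DESeq2 adjusted p = 0.0363; edgeR adjusted p = 0.467). Adora2a, an adenosine receptor gene, had 22.1 to 43.6 CPM in Sham and 50.3 to 64.1 CPM in FT, and its log2FC was 0.81 ± 0.25.

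The D2 dopamine receptor gene DRD2 had 23.2, 23.9, 23.2 and 40.8 CPM in Sham and 52.9, 37.9, 52.9 and 46.1 CPM in FT, higher in each pair (log2FC 0.81 ± 0.27). FT replicate 3 lay below Sham replicate 5. Syndig1l, a transmembrane protein gene enriched in striatum, had a log2FC of 0.74 ± 0.28, and Scn4b, a sodium channel beta subunit, 0.44 ± 0.30 with 2 of 4 pairs higher. Summed over the 6 transcripts, the level was 506, 478, 347 and 518 CPM in Sham replicates 1, 3, 4 and 5 and 894, 949, 687 and 705 CPM in FT, so the lowest FT sample lay above the highest Sham sample. In LS, MS, BNST and NaCshell Sham samples Ppp1r1b had medians of 130, 55.8, 169 and 328 CPM on the scale of the 4 regions. The log2FC in MS, BNST and NaCshell was 0.96, 0.86 and 0.50 for Rasd2 and 0.77, 0.63 and -0.09 for Adora2a. Bulk tissue does not tell more cells of a type from more RNA per cell, and what share striatal tissue in the punches had in these differences was not tested. The markers of other neighbours showed no common direction. The 11 tested markers of choroid plexus and ependyma had a median log2FC of 0.01, with 1 higher (Mns1, 0.59 ± 0.27) and 1 lower (Tekt1, -0.72 ± 0.28) at an unadjusted p under 0.05. The 5 medial septum markers had a median of -0.10 and no member past that limit.

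**Figure D2:**
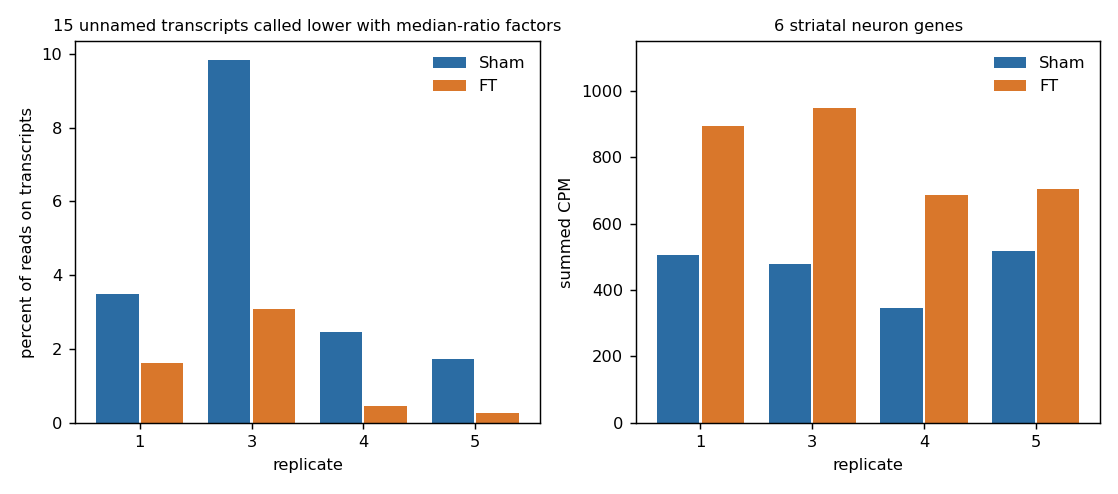
Left, percent of the reads on transcripts that fell on the 15 unnamed transcripts called lower with median-ratio size factors, and right, CPM summed over the 6 tested striatal neuron genes, for each replicate number, with Sham in blue and FT in orange. The share on the left is lower in FT in all 4 pairs, and on the right the 4 FT samples, from 687 to 949 CPM, lie above the 4 Sham samples, from 347 to 518 CPM.

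Immediate early, stress and clock genes had a median log2FC of 0.74 over 10 transcripts, with 5 higher and 1 lower at an unadjusted p under 0.05. Fos, a transcription factor gene that neurons switch on with activity, was counted at 22.2, 15.9, 6.63 and 14.01 CPM in Sham and at 31.4, 22.6, 27.9 and 30.7 CPM in FT. The lowest FT sample lay just above the highest Sham sample, and the log2FC was 1.08 ± 0.31 (edgeR adjusted p = 0.467). Dbp, a transcription factor of the output of the circadian clock, had 83.9, 86.7, 76.6 and 66.3 CPM in Sham and 154, 109, 152 and 180 CPM in FT, without overlap (log2FC 0.92 ± 0.26; DESeq2 adjusted p = 0.0864). DEPP, a gene induced by FOXO factors and progesterone, had 7.98, 2.65, 1.81 and 6.90 CPM in Sham and 19.5, 1.59, 22.7 and 28.5 CPM in FT. It was higher in 3 pairs and lower in that of replicate 3, which held only 3 Sham and 5 FT reads. The log2FC of DEPP was 2.04 ± 0.46 (edgeR adjusted p = 0.296), and edgeR called it without replicate 3 and also without replicate 1. Cirbp, the cold-inducible RNA-binding protein gene, reached 267 and 521 CPM in FT replicates 4 and 5 against 97.3 and 74.3 in Sham, while replicate 1 had 118 against 129 (log2FC 1.27 ± 0.39). The member that was lower was Nr3c2, the mineralocorticoid receptor gene, with 4.995, 6.19, 8.74 and 13.4 CPM in Sham and 0.589, 6.05, 5.75 and 4.94 CPM in FT. It was lower in each pair, in replicate 3 by little, with a log2FC of -1.28 ± 0.43 (edgeR adjusted p = 0.549).

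The lists of nuclear genes for mitochondria and of chromatin regulators had positive medians. Of 25 tested transcripts of the mitochondrial ribosome, which translates the genes of the mitochondrial genome, 10 were higher and none lower at an unadjusted p under 0.05, and 11 were higher in all 4 pairs, where 18.7% of all named transcripts passed that limit upwards. Without the block the 10 came down to 1. Their median log2FC was 0.52, against 0.25 for all named transcripts tested. Leaving out replicate 4 or 5 brought the 10 down to 6. Mrpl27 of the large subunit had 175, 119, 43.9 and 81.7 CPM in Sham and 235, 222, 132 and 192 CPM in FT (log2FC 1.04 ± 0.27; DESeq2 adjusted p = 0.036). Mrps15 of the small subunit had 24.1 to 54.7 CPM in Sham and 64.8 to 88.3 in FT, without overlap (log2FC 0.97 ± 0.27; DESeq2 adjusted p = 0.0925). Of 35 nuclear transcripts of the respiratory chain 8 were higher and none lower, a share nearer to the 18.7% of named transcripts, with a median of 0.47. Leaving out replicate 5 brought the 8 down to 3, and leaving out the block to 0. The complex I subunit genes Ndufb10 and NDUFB4 had a log2FC of 1.01 ± 0.34 and 1.00 ± 0.28. The 7 tested transcripts of the mitochondrial genome itself had a median of 0.33 and no member past the unadjusted limit.

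Of 29 chromatin regulators 11 were higher and 2 lower at an unadjusted p under 0.05, with a median log2FC of 0.42, and 10 were higher in all 4 pairs. The share of named transcripts higher at that limit was 18.7%. Without replicate 4 the count of 11 was 3, without replicate 5 it was 5, and without the block it was 1. Trim28, a corepressor that brings histone methylation to KRAB zinc finger targets and retroelements, had 110, 126, 125 and 84.8 CPM in Sham and 173, 146, 228 and 225 CPM in FT. The groups did not overlap, and the log2FC was 0.79 ± 0.27 (edgeR adjusted p = 0.571). Cbx6, a Polycomb chromodomain protein gene, had 108 to 236 CPM in Sham and 259 to 352 in FT, likewise without overlap (log2FC 0.76 ± 0.28). Hira, a chaperone of histone H3.3, had a log2FC of 1.11 ± 0.29 and was higher in 4 of 4 pairs. In the list for ubiquitin and the proteasome 6 of 30 were higher, a share near the 18.7% of named transcripts, and 3 lower. DESeq2 called Otub1 and UBB of this list.

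**Figure D3:**
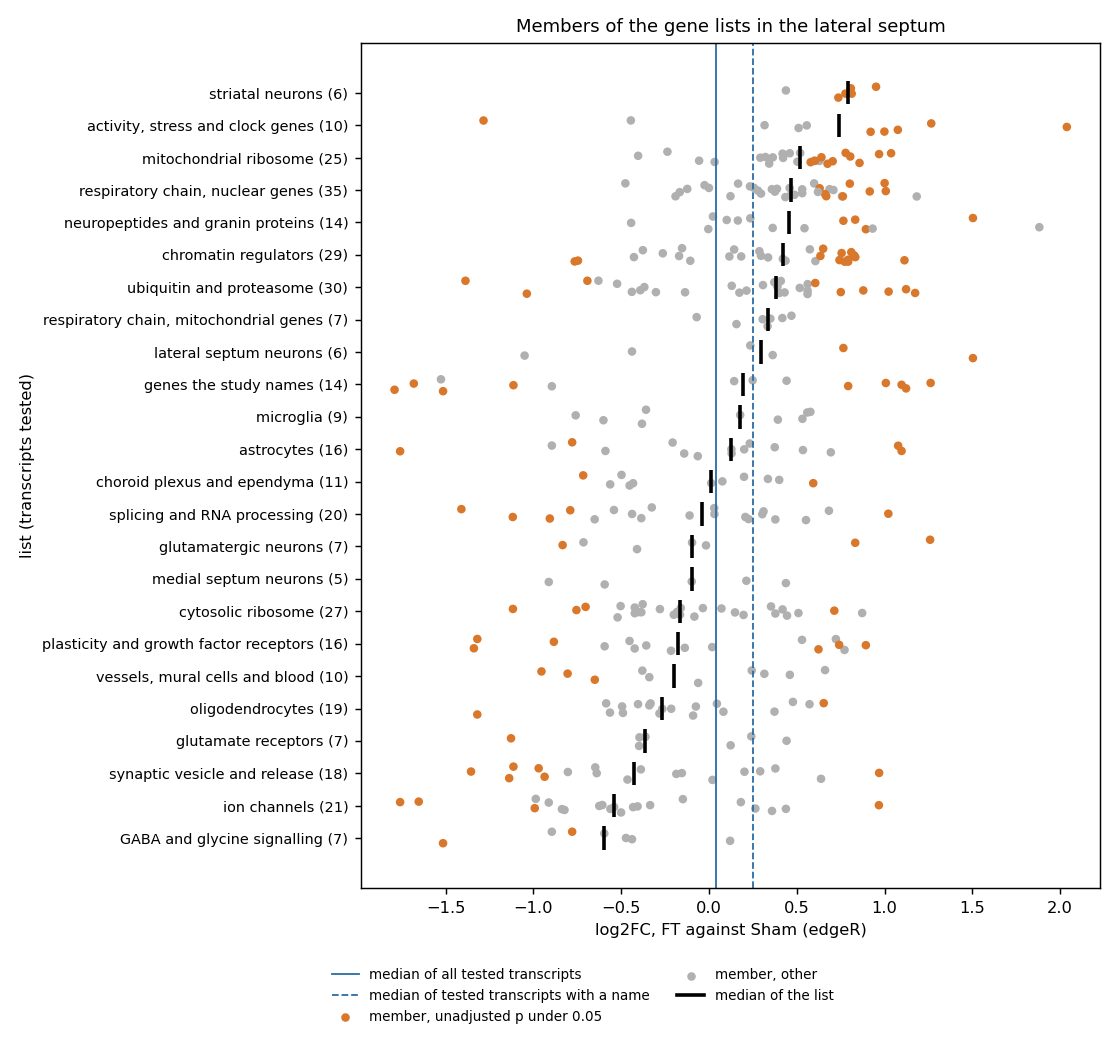
The log2FC of FT against Sham (edgeR) for each tested member of 24 gene lists with at least 5 transcripts tested, in orange where the unadjusted p was under 0.05, with a black bar at the median of each list and blue lines at the medians of all tested transcripts (0.04) and of those with a name (0.25). Striatal neuron genes have the highest median (0.79) and genes for GABA and glycine signalling the lowest (-0.60).

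At an unadjusted p under 0.05 no glial list had a common direction. Of 16 astrocyte transcripts 2 were higher and 2 lower at an unadjusted p under 0.05, with a median log2FC of 0.13, and -0.006 without replicate 3. Slc7a10, a neutral amino acid transporter of astrocytes that carries serine, had 25.3, 19.5, 21.5 and 29.4 CPM in Sham and 35.95, 27.1, 67.3 and 88.5 CPM in FT, higher in each pair and most in replicates 4 and 5 (log2FC 1.10 ± 0.29; edgeR adjusted p = 0.467). Mt1a, a metallothionein that binds zinc, had a log2FC of 1.08 ± 0.31. Of 19 oligodendrocyte transcripts 1 was higher and 1 lower, but most had a negative log2FC and 6 a positive one. The median was -0.27, and -0.43 without replicate 3, and 4 were lower and 2 higher in all 4 pairs. The abundant Car2 was lower in each pair (log2FC -0.59 ± 0.29). Summed, the list had 4747, 1959, 5618 and 3005 CPM in Sham and 3377, 3394, 3211 and 2182 CPM in FT. Sox10, the transcription factor of that lineage, had a log2FC of 0.65 ± 0.25, higher in 4 of 4 pairs, and Erbb3, its neuregulin receptor, -1.32 ± 0.38, lower in 4 of 4 pairs. None of 9 microglial transcripts passed the limit. Outside glia, the 27 transcripts of the cytosolic ribosome, with 1 higher and 3 lower and a median of -0.17, and the 20 for splicing, with 1 higher and 4 lower and a median of -0.04, were mixed too. Genes for plasticity and growth factor receptors had 3 higher and 3 lower of 16. Of 10 transcripts of vessels, mural cells and blood 3 were lower and none higher, with a median of -0.20. The haemoglobin genes of red blood cells differed, with a log2FC of -0.65 ± 0.28 for Hbb, lower in each pair, and of -0.06 ± 0.24 for Hbb-b1, which was higher in the pair of replicate 4.

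A further list had 15 genes, and 14 of them were tested in LS. Most of the tested genes are named in the study's text, but Commd4, Dpm3, Ormdl3 and Tmem126b are not. The names of the tested genes came from a table of transcripts that the study called in several regions of this series. LS samples were part of that series, so the direction of these genes here is not independent evidence. At an unadjusted p under 0.05, 5 of the 14 were higher, Dpm3 and Commd4 among them, and 4 lower. Of those described above, Otub1, Trim28 and Slc7a10 were higher, and Mat2a, Napb and Gabrb2 lower. Cds2, an enzyme of phosphatidylinositol synthesis, had 3.66, 23.0, 3.09 and 3.35 CPM in Sham and 0.262, 48.4, 1.18 and 0.185 CPM in FT. It was lower in 3 pairs and higher in that of replicate 3 (log2FC -1.68 ± 0.64), and without the block its sign turned.

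The largest differences among named genes with the same sign in all 4 pairs, an unadjusted p under 0.05 and at least 5 CPM on average included genes outside the lists. Traf3ip1, which serves transport in cilia, had 4.75, 6.19, 5.95 and 22.8 CPM in Sham and 8.51, 9.24, 46.9 and 55.8 CPM in FT, for a log2FC of 1.53 ± 0.37. Ptrhd1 had a log2FC of 1.29 ± 0.37, Gp1bb, a platelet glycoprotein gene, 1.27 ± 0.33 and Popdc2, a cyclic AMP binding protein gene, 1.26 ± 0.36. Tmem18, a nuclear membrane protein gene near a locus of body weight, had the most negative log2FC of this group, at -1.63 ± 0.36 (edgeR adjusted p = 0.263). It was counted at 10.96, 7.96, 19.1 and 13.3 CPM in Sham and at 1.64, 4.78, 6.18 and 5.86 CPM in FT, with every FT sample below every Sham sample. Lrrtm4, a postsynaptic adhesion protein gene, had 3.53, 3.54, 33.8 and 22.6 CPM in Sham and 1.70, 0.637, 10.99 and 10.99 CPM in FT, lower in each pair (log2FC -1.34 ± 0.32; edgeR adjusted p = 0.447). Plxnb1, a semaphorin receptor gene, had a log2FC of -1.33 ± 0.42, and Slc25a13, a mitochondrial aspartate and glutamate carrier gene, -1.32 ± 0.37. Ptprj, a receptor phosphatase gene, had -1.28 ± 0.36 and Mbnl1, a splicing regulator gene, -1.27 ± 0.34.

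**Figure D4:**
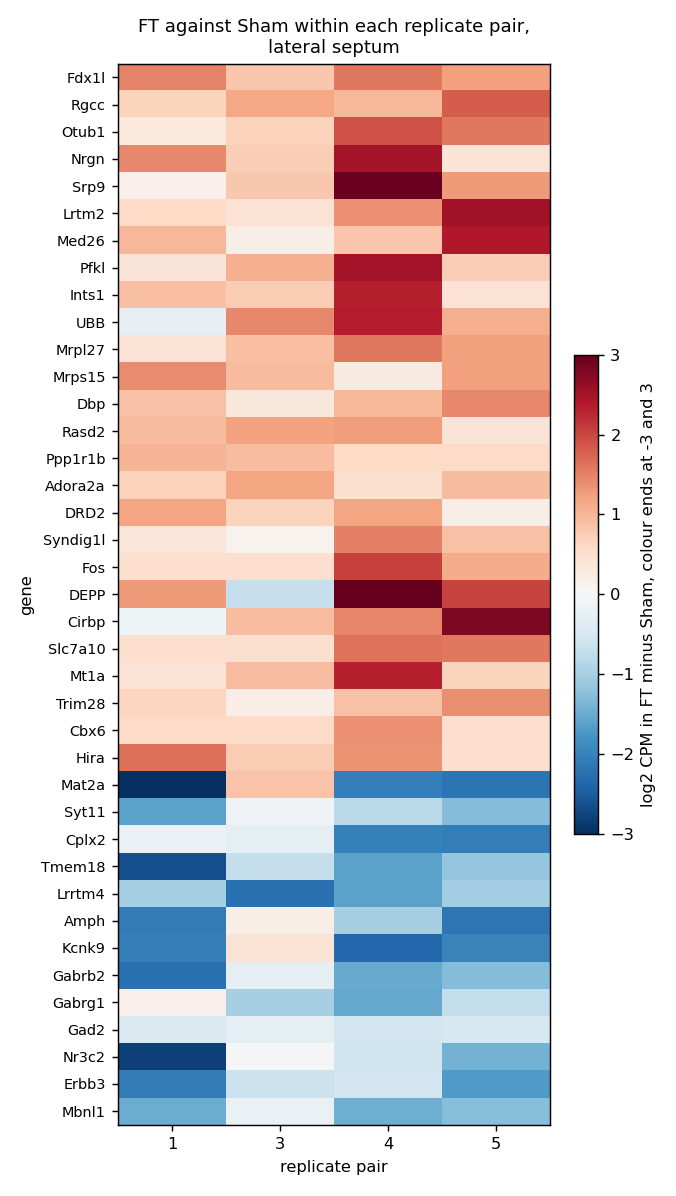
Log2 CPM in FT minus that in Sham within each of the 4 replicate pairs (columns) for 39 named genes (rows), red where FT was higher and blue where it was lower, with colours ending at -3 and 3. The upper 26 genes are red in every pair except UBB and Cirbp in replicate 1 and DEPP in replicate 3, and the pair of replicate 3 departs from the other 3 for DEPP, Mat2a, Amph and Kcnk9.

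The pairs were not alike across the whole transcriptome. Over 13793 transcripts, the log2 ratios of FT to Sham in the pairs of replicates 1 and 5 correlated at r = 0.30 and those of replicates 4 and 5 at r = 0.24, while the other 4 combinations lay between -0.11 and 0.09. These values describe the transcripts of these samples, which are not independent replicates. The ratios of replicate 3 had the widest spread, with an SD of 1.11 against 0.70 to 0.84 in the other pairs.

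Whether LS responded unlike its neighbours was tested as an interaction in joint fits with MS, BNST or NaCshell. In edgeR no transcript passed against any of them (0.0% in each). At an unadjusted p under 0.05 there were 239 of 14464 (1.65%) against MS, 351 of 14742 (2.38%) against BNST and 458 of 14729 (3.11%) against NaCshell. DESeq2 called 5 (0.0212%) against MS, none (0.0%) against BNST and 2 (0.00848%) against NaCshell. All regions were punched from the same 40 rats of each group, so the regions are not independent. The log2FC of Otub1 was 1.12 in LS, 0.82 in MS, 1.22 in BNST and 1.40 in NaCshell, and that of Trim28 was 0.79, 1.02, 1.08 and 1.05. Mat2a had -1.79, -1.82, -0.52 and -1.46 in the same order. The interaction for Mat2a between LS and BNST was -1.28 ± 0.73 (edgeR adjusted p = 1). Other genes stood further apart. Cck had a log2FC of 0.83 in LS and -0.46 in BNST (difference 1.29 ± 0.38). Adora2a had 0.81 in LS and -0.09 in NaCshell (difference 0.90 ± 0.34), and Lrrtm4 -1.34 in LS and -0.14 in NaCshell (difference -1.20 ± 0.41). The edgeR adjusted p of each of these 3 differences was above 0.99.

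The named transcripts that DESeq2 called against MS, Kcnj13 and Sostdc1, are both known from the choroid plexus. Kcnj13, a potassium channel gene of that epithelium, was counted on the scale of the 4 regions at 8.85, 4.11, 39.5 and 41.4 CPM in LS Sham replicates 1, 3, 4 and 5 and at 7.24, 4.28, 36.7 and 20.6 CPM in LS FT. In MS it had 8.69, 7.98, 68.1 and 35.0 CPM in Sham and 2.41, 0.836, 1.18 and 2.07 CPM in FT. FT lay below Sham in every MS pair and the groups there did not overlap, whereas in LS the pairs went both ways by little or, in replicate 5, down. The difference of log2FC between LS and MS was 3.44 ± 0.68 (edgeR adjusted p = 0.612; DESeq2 adjusted p = 0.0109). Sostdc1, a secreted inhibitor of BMP and Wnt signals, gave a difference of 3.04 ± 0.70 (edgeR adjusted p = 1; DESeq2 adjusted p = 0.0542).

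Ttr went the same way, with 2931, 3109, 2434 and 4342 CPM in LS Sham and 1704, 4346, 2406 and 1415 CPM in LS FT, against 1106, 3422, 5168 and 2756 CPM in MS Sham and 470, 898, 39.3 and 63.3 CPM in MS FT. Its log2FC was -0.50 ± 0.40 in LS and -3.86 ± 0.98 in MS, and the difference of 3.31 ± 1.13 passed neither tool (edgeR adjusted p = 1 and DESeq2 adjusted p = 1). The fall of Ttr was not limited to MS. From lower Sham levels, its log2FC was -2.69 ± 0.50 in NaCshell, lower in all 4 pairs, and -2.41 ± 1.16 in BNST. The difference between LS and NaCshell was 2.20 ± 0.71 and passed neither tool (DESeq2 adjusted p = 0.476). Kcnj13 was scarce in both regions, with Sham medians of 2.3 CPM. How much choroid plexus the punches of each region and pool took in was not tested.

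**Figure D5:**
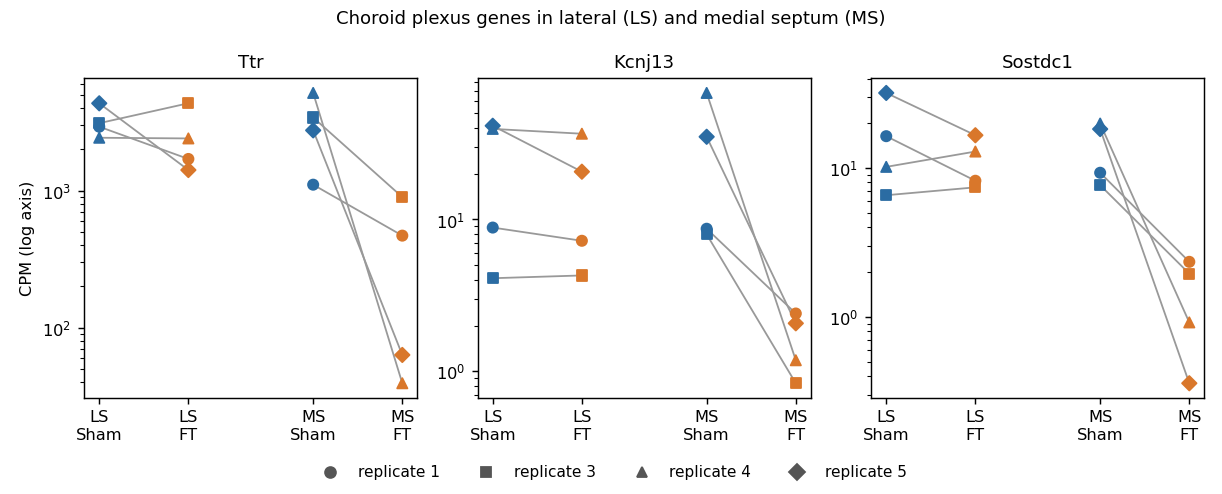
CPM (log axis, scaled over 4 regions) of the choroid plexus genes Ttr, Kcnj13 and Sostdc1 in Sham (blue) and FT (orange) samples of LS and MS, with a symbol for each replicate number and lines joining pairs. In MS all 4 lines go down for each gene, to under 3 CPM for Kcnj13 and Sostdc1, while in LS the levels of FT and Sham overlap.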

How the data were processed

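The authors deposited raw counts of reads per Ensembl transcript, made with STAR and HTSeq on the rn5 genome after FastQC, with no normalization. The strand setting, counting mode and versions are not given in the sources used here, so reads of overlapping or near-identical transcripts may be split or lost. The labels list the molecule as polyA RNA, while the protocol names a stranded total RNA kit. The last 5 lines of each file, which hold reads outside transcripts, were dropped, leaving 29188 transcripts. The range of depth in each group is given in the report, and transcripts with few reads carry the larger counting error.

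The 8 LS samples were fitted on their own in edgeR 4.0.16 (R 4.3.3). Low transcripts were removed with filterByExpr (minimum count 10, minimum total 15), libraries were scaled by TMM, the model held treatment and a block for replicate numbers, and the quasi-likelihood test was adjusted by Benjamini-Hochberg over all transcripts tested. The SE was taken as |log2FC| over the root of the F statistic. As an alternative, and as in the study's methods, the blocked model was also run in DESeq2 1.42.0. Ratios within pairs used log2 CPM with a prior count of 2. Within a replicate number, the deviations of FT and of Sham from their group means correlated at 0.587, 0.703, 0.810 and 0.673 for replicates 1, 3, 4 and 5, and the study's methods state that such samples were processed in parallel, so they were treated as pairs. Interactions with MS, BNST and NaCshell came from joint fits in which each region had its own replicate blocks. In counts simulated with known changes, both tools made a larger share of false calls than the adjusted p allows. Tables were handled with Python 3.11.15 and pandas 2.3.3, and figures drawn with matplotlib 3.10.9. Alternatives were leaving out each replicate, no block, DESeq2, median-ratio size factors, a stricter adjusted p (0.05), no filter on low counts and, for interactions, a treatment effect shared by both regions for each replicate number. Leaving out replicates with DESeq2, and refits of the gene lists, were chosen after seeing the data.

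Gene names came from the identifier and name columns of a supplementary table of the study, which named 1844 of the transcripts, each called by the study in several regions. The members and gene lists were chosen with earlier results of these data known. The genes named are the DEGs, the 10 largest rises and falls among named DESeq2 calls, the 8 largest rises and falls among named transcripts with an unadjusted p under 0.05, the same sign in 4 pairs and a mean of at least 5 CPM, the 2 smallest p and 2 highest levels in each list, and 11 genes of interest in LS or named by the study. Not all genes that the rule allows are printed. Dbp, DRD2, Syndig1l, Kcnj13, Sostdc1, Pvalb and the transcripts in the closing section were named after their values were seen. Whether the samples are independent beyond their pools is not stated, so p-values measure the spread between these pools.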

Additional observations from a re-analysis of the deposited data

Results flagged for a closer look

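In groups of 4, a sample was singled out where its gap to the next sample exceeded Dixon's critical share of the range of the group, on log2 CPM for genes. Of 162 groups examined 12 met this, and chance gives about 1 in 20. Replicate 3 had the highest share of reads on the 50 most abundant transcripts in Sham (gap 0.959 of the range) and in FT (0.854). FT replicate 1 was apart as the lowest for Gabrb2 (0.891) and Nr3c2 (0.912). FT replicate 3 was the lowest for DEPP (0.868) and the highest for Plxnb1 (0.834). Sham replicate 4 was the lowest for Htr1a (0.888), Amph (0.869) and Rasd2 (0.837). Sham replicate 3 was the highest for Cds2 (0.916), and Sham replicate 5 for DRD2 (0.95) and Traf3ip1 (0.831).

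The response differed between regions for 7 transcripts by the DESeq2 interaction, all with the higher log2FC in LS, and edgeR called none of them. Against MS the difference of log2FC was 3.41 for Kcnj13, 3.06 for Sostdc1, 3.98 for ENSRNOT00000049569, 4.53 for ENSRNOT00000050571 and 3.6 for ENSRNOT00000074384. The 3 unnamed transcripts had at most 7 reads in each MS FT sample and more in MS Sham replicates 4 and 5, and ENSRNOT00000074384 was also lower in FT in each LS pair. Against NaCshell the difference was 3.19 for ENSRNOT00000050725 and 2.14 for ENSRNOT00000071053. The first had 1.78, 3.39, 8.03 and 6.30 CPM in NaCshell Sham and 0.982, 0.559, 1.10 and 0.458 CPM in NaCshell FT, against 3.46, 3.28, 8.57 and 6.05 in LS Sham and 6.72, 2.00, 12.4 and 13.8 in LS FT.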

How the results depend on the processing

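The number of LS DEGs, 4 in the report, was 0 with no replicate block (81 at an unadjusted p under 0.05), so every call depended on the pairing. It was 15 with median-ratio size factors, 136 with no low-count filter and 49 with DESeq2, and between 0 and 53 with one replicate left out (53 without replicate 1, 44 without replicate 3, 0 without replicate 4 and 1 without replicate 5). DESeq2 called 75, 128, 30 and 16 without replicates 1, 3, 4 and 5. The cause of these moves was not tested. The 4 DEGs were among the calls without replicate 1, without replicate 3, with median-ratio factors and with no filter. The edgeR calls without replicate 3 also included Fdx1l, Gp1bb, DEPP, Mat2a, Tmem18, Amph, Kcnk9 and Cds2. Interaction calls, 0 in the report, were 5 with DESeq2 and 13 with no filter against MS, 6 with no filter against BNST, and 2 with DESeq2 and 8 with no filter against NaCshell. With a shared treatment effect for each replicate number they stayed at 0. Of 600 refits of log2FC for 75 genes or transcripts, 5 turned the sign. With one replicate left out Sst ranged from -0.036 (without replicate 3) to 0.79 (without replicate 1), Pvalb from -0.22 (without replicate 5) to 0.054 (without replicate 3) and Hbb-b1 from -0.17 (without replicate 4) to 0.013 (without replicate 1), and with no replicate block Kcnk9 went to 0.030 and Cds2 to 0.69. In DESeq2 without replicate 3 Sst was at -0.0068 and Pvalb at 0.081, and without replicate 5 Cartpt was at -0.010. Without the block, the members higher at an unadjusted p under 0.05 went from 10 to 1 for the mitochondrial ribosome, from 8 to 0 for the respiratory chain, from 11 to 1 for chromatin regulators and from 5 to 4 for striatal genes. The depth of Sham replicate 3 limits what its pair can show for scarce transcripts.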
